A study of Mus musculus with 4 samples.

Results

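SMAD4 binding inside exons was examined in mouse alveolar macrophages (AMs), which live in the airspaces of the lung. Overlapping peaks (1 bp or more) were joined into one interval, and an interval with a peak of each SMAD4 replicate was a shared region. A shared region was called exonic when its midpoint lay in an exon of a curated RefSeq transcript, outside promoters (from 1000 bp before a transcription start site, or TSS, to 100 bp after it) and outside gene ends (from 100 bp before a transcript's end to 1000 bp after it). Of 10964 shared regions, 262 were exonic. By the part of the transcript at the midpoint, 84 lay in coding sequence, 21 in a 5′ UTR, 126 in a 3′ UTR and 31 in an exon of a noncoding transcript. When transcripts differed at a position, coding sequence took precedence, then 5′ UTR, 3′ UTR and noncoding exon.

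The cells were lavaged from the lungs of wild-type C57BL/6J mice aged 9 weeks and sorted by flow cytometry. The series held 2 SMAD4 HT-ChIPmentation libraries (immunoprecipitated chromatin that receives its sequencing adapters from the transposase Tn5 while on the beads) and 2 input libraries, which enter here only as the control level behind each peak. Replicates were numbered in accession order, and the labels do not state whether they came from separate mice. With 1 condition there was no contrast to test, so agreement between the 2 libraries is the measure of error, and intervals on shares (exact binomial, 95%) cover counting error only.

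SMAD4 is the partner shared by the receptor-activated SMAD proteins, which carry signals from TGFβ and BMP receptors into the nucleus. SMAD complexes hold DNA weakly by themselves and usually bind beside lineage-determining factors, which in macrophages include PU.1 and the C/EBP proteins. Exons are sequence that codes for protein or stays in the mature RNA, so a factor bound there may contact bases that also carry another function.

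The strings below are shown because they lie near the mean of both summits, at most 36 bp away, and mostly in exon bases. Their regions are strong or in well-known genes. In Prss21, Plin2 and Klf6 the summits were 134, 148 and 229 bp apart, so the mean lay between them. Each line gives 29 bases of mm10 from RefSeq GRCm38.p6, 5′ to 3′ on the strand named, and capitals mark the string shown. Where a line's string has more than 1 copy in the summit window, the copy nearest the mean of both summits is shown. The first 8 lines carry the C/EBP string TTGCNNAA. In Sp3, Xrcc5, Prss21 and Itgax all 8 capital letters lie in coding bases, in Mmp8 and Klf6 in the 3′ UTR part of the last exon, in Jarid2 in the 5′ UTR and in Gm11963 in the exon of a noncoding RNA.
Mmp8, chr9:7567531-7567559, minus strand: gacatttgacaTTGCTCAActctatgaac
Sp3, chr2:72970471-72970499, minus strand: cacaacaggctTTGCAAAAccttcagttg
Xrcc5, chr1:72326292-72326320, plus strand: agactgtttaTTGCCTAAatgacgatgat
Prss21, chr17:23868725-23868753, plus strand: tggcgcaaccTTGCTCAAccgccgctggg
Itgax, chr7:128133792-128133820, minus strand: tcctaccccaaTTGCATAAcgaatgatgc
Klf6, chr13:5868260-5868288, minus strand: acaaccctacaTTGCACAAgatcattttg
Jarid2, chr13:44731789-44731817, minus strand: ccgtcagaaatTTGCAAAAaaatatcctg
Gm11963, chr11:5502586-5502614, plus strand: ctcatcccacTTGCTCAAccagcatatgt
The next 3 carry the PU.1 string GAGGAAGT, the RUNX string TGTGGT and the SMAD string GTCTGG, again in coding bases.
Setd5, chr6:113121000-113121028, plus strand: ttggaagaagGAGGAAGTaacaactcagt
Plin2, chr4:86657296-86657324, plus strand: cttgaatgttcTGTGGTaacccttgggcg
Klhdc4, chr8:121796541-121796569, plus strand: cgcagtctagtGTCTGGcctgtgcaatgt

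Exons held 2.39% of the shared regions (interval 2.11 to 2.69%), and exon bases defined in the same way made up 2.47% of the genome searched, a ratio of 0.967. The 4 classes were not alike. Coding sequence held 2.52 regions per Mb (2.01 to 3.11), 5′ UTR sequence 8.38 (5.19 to 12.8), 3′ UTR sequence 5.68 (4.73 to 6.75) and noncoding exons 5.99 (4.07 to 8.49). The intervals of coding sequence and of each other exon class did not overlap, and that of coding sequence held the density of intergenic sequence, 2.99. Introns held 5.67 regions per Mb, inside the interval of each of these other exon classes. Promoters, at 22.7, held more regions per Mb than any exon class.

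**Figure D1:**
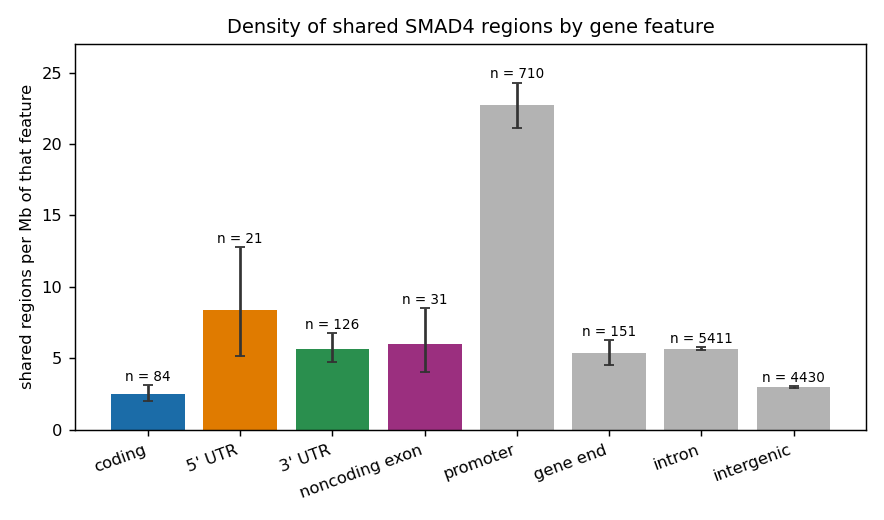
Shared SMAD4 regions per Mb of each gene feature, with exact 95% intervals as error bars and the number of regions above each bar. Coding sequence, at 2.52 regions per Mb, was the lowest of the 8 features, with an interval that reaches the bar of intergenic sequence, and promoters, at 22.7, the highest.

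The median strength of exonic regions was that of shared regions elsewhere. Fold enrichment is the deposited ratio of fragments stacked at the summit to the control level, with 1 added to both. Its median over the 262 regions was 6.83 in replicate 1 and 9.48 in replicate 2, against 6.83 and 9.48 over the 10702 shared regions that were not exonic. The middle 50% ran from 5.20 to 9.70 and from 6.67 to 14.4. Both medians rest on few fragments, 21 at the summit in each replicate. A fold of at least 10 in both replicates was reached by 23.3% of all shared regions and by 59 exonic regions, or 22.5% (17.6 to 28.1). By class the share was 27.8% (20.2 to 36.5) in 3′ UTRs, 22.6% (9.59 to 41.1) in noncoding exons, 19% (5.45 to 41.9) in 5′ UTRs and 15.5% (8.51 to 25) in coding exons, and each interval held the share of all shared regions.

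The largest exonic folds were 23.1 in replicate 1 and 39.7 in replicate 2, against 54.0 and 96.1 among the far more numerous other shared regions, a group whose size alone favours a larger maximum. The upper quartiles were 9.70 and 14.4 in exons and 9.75 and 14.4 elsewhere. Ranked by the smaller of both folds, the strongest exonic region, in Cd200r1, stood at place 254 of 10964.

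The replicates ranked exonic regions alike. Spearman's rank correlation between their folds was 0.770 across the 262 regions and 0.782 across all shared regions, a description over regions that come from the same 2 libraries. The fold was higher in replicate 2 at 87.2% of all shared regions and at 221 exonic regions (84.4%). The median difference of replicate 2 over replicate 1 was 0.47 on the log2 scale, in exons and elsewhere. Exonic summits held a median of 21 fragments in each replicate. The control level in the denominator differed, with a median over each list's peaks of 2.08 and 1.22. The part of the control level in the difference was not tested. Single regions spread widely around the median difference. Sh3tc1 had folds of 6.50 and 19.4, a ratio of 2.99, in a window of 67.2% GC, while Zfp281 had 9.75 and 5.17, a ratio of 0.530, in a window of 34.8% GC. Over the 262 regions the log2 ratio and the GC content of the summit window had a rank correlation of 0.238, and over all shared regions 0.189. All points come from the same 2 libraries, and the part of base composition in the ratio was not tested.

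**Figure D2:**
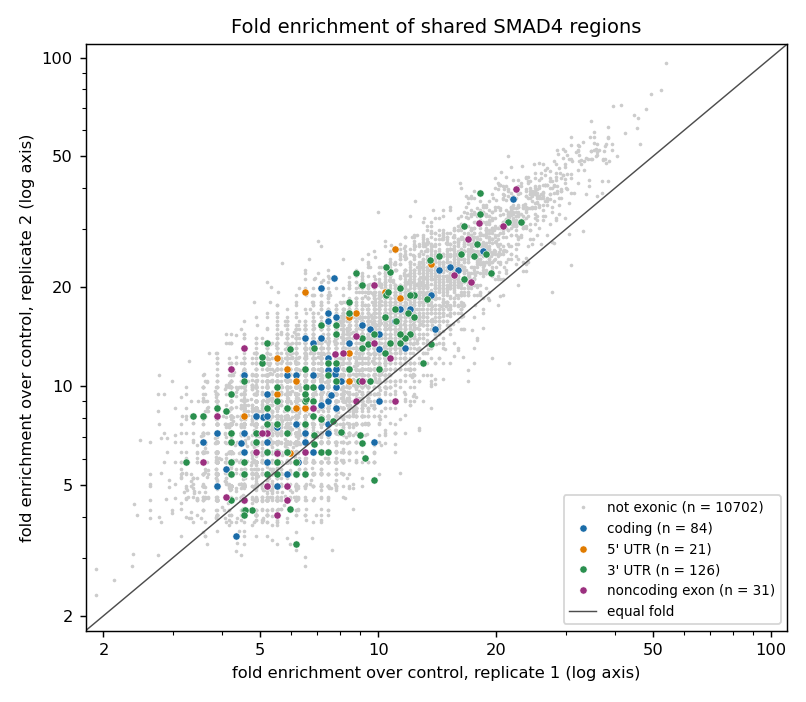
Fold enrichment over the control level in replicate 1 (x, log axis) and replicate 2 (y, log axis) for each shared region, with exonic regions coloured by class, other shared regions in grey, and the line of equal fold. Exonic regions lie within the cloud of other regions, mostly above the line, and end at 23.1 and 39.7.

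Exon calls depended on which library was read. Taken alone, replicate 1 had 334 peaks with an exonic midpoint among 16369 (2.04%) and replicate 2 had 484 among 19015 (2.55%). Of the exonic peaks, 75.7% (70.8 to 80.2) of replicate 1 had a partner in replicate 2, against 69.4% of all its peaks. In replicate 2 the shares were 55.2% (50.6 to 59.7) and 59.2%. Exonic peaks without a partner were weak, with a median fold of 4.55 in replicate 1 and 5.41 in replicate 2. The unpartnered exonic sets differed in base composition: their summit windows held on average 36.2% GC in replicate 1 and 46.9% in replicate 2, while partnered exonic peaks held 44.1% and 44.7%. The same split was seen over all peaks, at 32% and 43.3% without a partner and 43.4% and 43.9% with one.

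Coding regions spilled over the edges of their exons. The median exon under a coding midpoint was 179 bp long and the median coding region 416 bp wide. Of 84 regions, 51 reached past both edges of the exon and 15 lay inside it, and the median region had 50.1% of its bases in exons. Both summits fell on exon bases in 41 coding regions, one in 33 and neither in 10. Tmem33, an endoplasmic reticulum membrane protein, is a case where the midpoint alone made the call: its region at chr5:67263827-67264716 had folds of 14.3 and 22.6, its midpoint was 2 bp inside an exon of 188 bp, and neither summit was exonic.

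The 3′ UTR regions mostly had no such overhang. Their exons had a median length of 2866 bp, 110 of 126 regions lay wholly inside the exon, and both summits were in exon bases in all 126. Exon bases here include coding ones: in Klhdc4 and Itgax, for example, both summits were in coding bases and the region passed both exon edges. In 118 of them the exon was the last of several in its transcript, and in the other 8 the only one. The host gene also owned the nearest TSS in only 63 of the 126, against 67 of 84 coding regions, so a nearest-TSS rule would have given the other 63 to a neighbour. Cd200r1 is one of these, with Cd200r4 as the nearest-TSS gene.

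Most 5′ UTR regions were near a start site but outside the promoter definition. They lay a median of 337 bp from the nearest TSS of the host gene, 17 of 21 were in a first exon, and 14 lay within 1000 bp of a TSS. The other 7 lay farther out, up to 126857 bp from the host's nearest TSS. In 13 of them another transcript of the same gene was intronic at the midpoint. Among all 262 exonic regions, 26 were intronic in some host transcript.

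**Figure D3:**
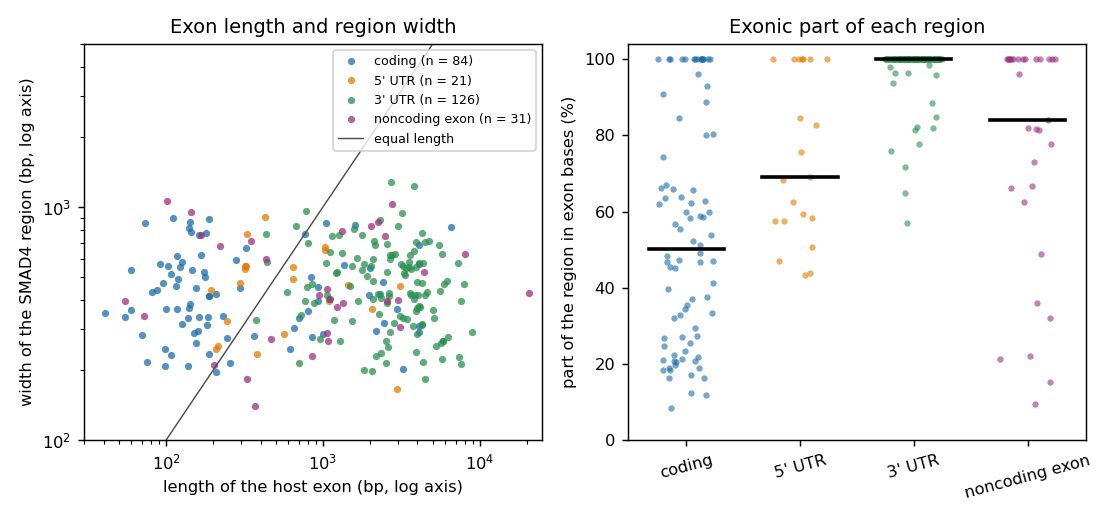
Left, length of the host exon (x, log axis, bp) and width of the SMAD4 region (y, log axis, bp), with the line of equal length. Right, percent of each region in exon bases by class, with 1 point per region and the median as a bar. Coding regions sit mostly left of the line with a median of 50.1%, and 3′ UTR regions right of it with a median of 100%.

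Among coding exons the strongest region was in Mmp8, which encodes the neutrophil collagenase and is on the list of AM markers used here. It covered chr9:7567111-7567965, had folds of 22.1 and 37.0 from 67 and 81 fragments, and centred on the last of 10 exons. Both summits, 10 bp apart, were in coding bases, and 74.3% of the region was exonic. The C/EBP string printed above lies 36 bp from their mean, beyond the stop codon, and a RUNX string lies 49 bp away on the other side in coding bases. The gene body held 1 more shared region, at the promoter, and the exonic one was the stronger.

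Tmem236, a transmembrane protein gene, followed at chr2:14191841-14192695 with folds of 18.5 and 25.7, but only 8.54% of its bases were in the exon of 73 bp. Sp3, a zinc finger factor that binds GC boxes, had folds of 15.9 and 22.6 at chr2:72970301-72970864. Unlike most coding regions, it lay wholly in one exon of 1360 bp, with summits 1 bp apart. Xrcc5, the Ku80 subunit of DNA end joining, had folds of 15.3 and 23.0 over exon 8, at chr1:72325873-72326681, where 17.2% of the region was exonic.

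The other coding regions among the 10 strongest had folds between 11.4 and 14.3 in replicate 1 and between 13.1 and 22.6 in replicate 2. They were in Tmem33, Smc1b (a meiotic cohesin subunit, 14.0 and 14.9), Spata13 (a guanine nucleotide exchange factor, 13.6 and 18.95), Setd5 (a SET domain protein, 12.0 and 17.1), Prkd3 (protein kinase D3, 11.7 and 13.1) and Prss21 (a membrane-anchored serine protease, 11.4 and 17.1). Of these 10 coding regions, 7 held the C/EBP string in the summit window, while Smc1b, Spata13 and Prkd3 did not.

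In 3′ UTRs the strongest region was in Cd200r1, an inhibitory receptor that restrains myeloid cells. It covered chr16:44794067-44795022 with folds of 23.1 and 31.6 from 70 and 69 fragments. The gene body held 3 intronic shared regions as well, all weaker. Btbd19 had 21.4 and 31.6, Dgke (a diacylglycerol kinase) 19.4 and 22.1, Ppp2r5e (a regulatory subunit of protein phosphatase 2A) 18.8 and 25.3, and Klhdc4 18.2 and 33.4. Btbd19 and Ppp2r5e held the C/EBP string; Klhdc4 held the SMAD string and Dgke neither.

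Noncoding exons held some of the strongest regions. Gm11963, a long noncoding RNA, had folds of 22.4 and 39.7 from 68 and 87 fragments at chr11:5502114-5503066, the largest exonic fold in replicate 2. Its window held 3 C/EBP strings, of which 2 lay in the exon of 145 bp. Gm14963 had 20.8 and 30.7, 4921509O07Rik 18.02 and 31.3, 2810013P06Rik 17.2 and 20.8, and 1700055D16Rik 16.9 and 28.0. In 4921509O07Rik neither summit was in exon bases, and 22.0% of the region was exonic.

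The 5′ UTR regions were led by Mreg, which encodes melanoregulin, a protein of melanosome and phagosome traffic, with folds of 13.6 and 23.5 at chr1:72195936-72196611, 16033 bp from its nearest TSS. Osbpl9, a lipid transfer protein of the oxysterol-binding family, had 11.4 and 18.5. Ap5s1, a subunit of the AP-5 adaptor, had 11.05 and 26.2, and Jarid2, an accessory subunit of Polycomb repressive complex 2, had 10.4 and 19.4. Gas7 had 8.77 and 16.7.

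Among 31 AM marker genes, 2 hosted an exonic region, Itgax and Mmp8, while 16 had a shared region somewhere in the gene body and 28 were the nearest-TSS gene of one. The study displays SMAD4 peaks at both Itgax and Mmp8, so these 2 hosts were not an independent find. Of 12 loci listed here from its displays, the same 2 hosted an exonic region. For scale, 1.05% of 21000 protein-coding genes hosted an exonic region, 13.9% had one in the body and 21.4% were the nearest-TSS gene of one. Of 15 marker genes of other lineages, none hosted an exonic region, 1 had one in the body and 3 were nearest to one.

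Itgax encodes CD11c, the integrin α chain that AMs carry at high level. Its region at chr7:128133576-128134156 had folds of 16.2 and 25.3 from 49 and 55 fragments, with summits 13 bp apart, and was the only shared region in the gene body. The class depends on the isoform: 2 of the 3 transcripts at the midpoint were exonic there, and the 3′ UTR call comes from short isoforms that end in this place. The C/EBP string lies 17 bp from the mean summit, in bases that the annotation lists as coding, and an RBPJ string lies nearer, at 14 bp. The window also held 3 PU.1 strings, at 22, 35 and 51 bp.

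Of 32 myeloid surface receptors and integrins, 3 hosted an exonic region: Itgax, Msr1 and Tlr4. Msr1, the class A scavenger receptor, had folds of 7.80 and 9.93 in its coding exon of 187 bp. Tlr4, the receptor for lipopolysaccharide, had 5.52 and 5.87 in its 3′ UTR, below the exonic medians. Of 30 genes of lipid handling and the lysosome, Plin2, the coat protein of lipid droplets, was the only host, with folds of 7.80 and 10.4 in the coding part of its last exon. Its window held C/EBP, ETS, RUNX and SMAD strings together.

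Of 33 genes of the TGFβ and SMAD pathway, only Bmpr1a (3.03%), a type I BMP receptor that acts upstream of SMAD4, hosted an exonic region, with folds of 7.67 and 7.81 in the 3′ UTR at chr14:34411508-34411933, while 11 had a shared region in the gene body and 16 were nearest to one. Of 34 myeloid transcription factor genes, Klf6 was the only exonic host, with folds of 4.22 and 5.41 in its 3′ UTR, below both exonic medians. The C/EBP string lies 7 bp from the mean of its summits, which are 229 bp apart.

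Further immune genes stood among the 3′ UTR hosts, picked here after their values were seen. Clec5a, an activating lectin of myeloid cells, had folds of 18.2 and 38.8. Tnfrsf8, the receptor CD30, had 17.9 and 27.1, Cd83 had 14.3 and 24.8, Plau (urokinase) 13.3 and 18.4, and the chemokine gene Cxcl9 12.0 and 18.95. Mpeg1, the pore-forming perforin-2, had 8.95 and 10.4, and Lyz1, a lysozyme, had 7.80 and 14.4. The chemokine receptor gene Cx3cr1 was weaker, with 5.07 and 11.7.

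The highest fragment counts were not in a region of high fold. Lars2, the mitochondrial leucyl-tRNA synthetase, had 119 and 181 fragments at the summits in its 3′ UTR, the most of any exonic region, over control levels of 22.7 and 13.9, and its folds were 5.06 and 12.2. The background control level of the 2 lists was 2.08 and 1.22. A control level above that background was found at 45 exonic regions (17.2%) in each replicate, against 18.3% and 17.5% of other shared regions.

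At the weak end stood Zfp36l2, an mRNA decay factor, with folds of 3.25 and 5.87, Nanos1, an RNA-binding protein, with 3.38 and 8.12, and Evi2a with 6.17 and 3.32. All 3 were in 3′ UTRs.

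The 262 regions fell in 252 host genes, and 8 genes hosted more than 1. In 149 host genes the exonic region was the only shared region in the gene body, and 97 (38.5%) had an intronic one too. Trps1 had 17 shared regions in its body, Asap1 10 and Hdac4 9, each with 1 of them exonic. Among the 103 host genes with further regions in the body, the exonic region was the strongest in 37. Larp4b, Man2a1 and Prune2 had regions in different exons, while Map3k9, Zfp275, Srgap2 and Evi2a had 2 regions each in 1 long exon.

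Muc3, a mucin gene, was the extreme case. Its exon of 4068 bp held 4 shared regions, covering 45.6% of the exon. Their folds ran from 5.85 to 8.45 in replicate 1 and from 6.77 to 11.3 in replicate 2, near the exonic medians. All 4 windows held the RUNX string, and the exon held it 43 times, 10.6 per kb, always on the plus strand, opposite to the gene. The windows around the string nearest each mean summit are printed because those of regions A, B and C resemble each other.
Muc3 region A, chr5:137150534-137150562, plus strand: gtgatttcaagTGTGGTagtgaggtaggc
Muc3 region B, chr5:137151539-137151567, plus strand: gtgatttcaggTGTGGTgttgaggtcagc
Muc3 region C, chr5:137152367-137152395, plus strand: gtgacttcaccTGTGGTggtgacaatatc
Muc3 region D, chr5:137152784-137152812, plus strand: acatcatccgtTGTGGTgagatcaccagt
Over the 29 bases printed, regions A and B had 24 identical bases, B and C 20, and A and C 19, while D had 9 in common with A and 13 with B and with C. The 6 bases of the string itself are among these. The part that repeated sequence plays in calling 4 peaks within 1 exon was not tested.

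Windows of 201 bp around the mean summit were searched for 12 strings on either strand. The summits of both replicates lay more than 100 bp apart in 67 exonic regions (25.6%) and in 22% of all shared regions. There the window and all distances centre on a point between them, away from either summit. The C/EBP string was the most frequent. It was held by 40.9% of all shared regions and by 101 exonic ones, or 38.5% (32.6 to 44.7). Windows at the midpoints of 244240 annotated exon parts held it in 7.87%, and windows 1000 bp to either side of the exonic summits in 6.49% of 524. By class it was present in 57 of 126 3′ UTR regions (45.2%, 36.4 to 54.3), 13 of 31 noncoding exon regions (41.9%, 24.5 to 60.9), 27 of 84 coding regions (32.1%, 22.4 to 43.2) and 4 of 21 5′ UTR regions (19%, 5.45 to 41.9). These intervals overlap, and differences between the classes were not tested.

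Most of these strings were made of exon bases. In 95 of the 101 regions at least 1 string lay wholly in exon bases, all 57 of the 3′ UTR class among them. Regions were picked by an exonic midpoint, which largely fixes this count. It was 86 of 96 regions for the ETS string and 57 of 64 for the RUNX string. In 22 of the 27 coding regions the C/EBP string lay wholly in coding bases. The commonest form among 119 was TTGCACAA, found 25 times, and 16 regions held 2 or more strings. The string nearest the mean summit was a median of 31 bp away, and in 43 of 101 regions (42.6%) within 25 bp. In other shared regions the median was 32 bp and the share 40.9%.

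**Figure D4:**
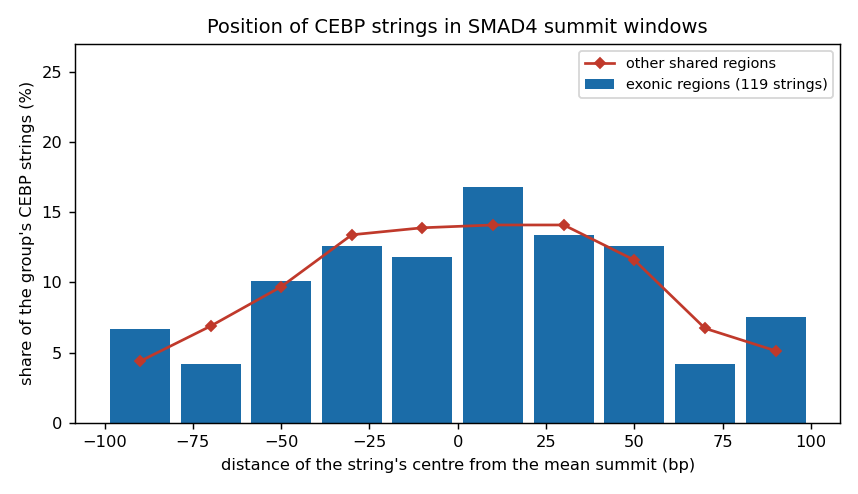
Distance of the centre of each C/EBP string from the mean summit (x, bp, in bins of 20 bp) and the share of each group's strings in the bin (y, %), with bars for the 119 strings of exonic regions and a line for those of other shared regions. Both groups are highest near the summit, with 16.8% of exonic strings between 0 and 20 bp.

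Over all exonic regions, the C/EBP string was in 29 of 59 with a fold of at least 10 in both replicates (49.2%, 35.9 to 62.5). It was in 72 of 203 below (35.5%, 28.9 to 42.5). It was present in 8 of 13 coding regions with a fold of at least 10 in both replicates (61.5%, 31.6 to 86.1) and in 19 of 71 below (26.8%, 16.9 to 38.6). In 3′ UTRs it was present in 14 of 35 (40.0%, 23.9 to 57.9) and in 43 of 91 below (47.3%, 36.7 to 58.0). Each pair of intervals overlaps, and the differences were not tested. Among other shared regions the shares were 54.2% and 36.8%.

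ETS and RUNX strings came next. The ETS string GGAAGT, which is contained in the PU.1 string, was held by 33.1% of all shared regions and by 96 exonic ones (36.6%, 30.8 to 42.8), against 12.6% of exon midpoint windows. The PU.1 string itself was in 8% of all shared regions and in 22 exonic ones (8.40%, 5.34 to 12.4), against 1.41% of exon midpoint windows. Ranked by the smaller fold, its strongest hosts were Itgax, Cd83, Spag9, Setd5 and Cnr2. The RUNX string was in 26.4% of all shared regions and in 64 exonic ones (24.4%, 19.3 to 30.1), against 14.0% of exon midpoint windows. At least 1 of the C/EBP, ETS and RUNX strings was present in 189 exonic regions (72.1%), and none of the 12 strings in 31 (11.8%).

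The AP-1 string TGANTCA was less frequent in exonic regions than in other shared regions. It was in 12.3% of all shared regions but in 16 exonic ones, 6.11% (3.53 to 9.73), with an interval that holds the 4.8% of exon midpoint windows and not the 12.5% of other shared regions. Windows 1000 bp from the summits differed in the same direction, with the string in 3.44% beside exonic regions and 6.34% beside other shared regions. In the summit windows the share was 5.95% in coding and 6.35% in 3′ UTR regions. It was low at promoters too, 9.15% (7.14 to 11.5), an interval that overlaps the exonic one. This difference was picked from 12 strings after the values were seen.

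Of the SMAD strings, GTCTGG was in 11.2% of all shared regions, in 29 exonic ones (11.1%, 7.54 to 15.5) and in 12.4% of exon midpoint windows. Those with a SMAD string included Klhdc4, Ing5, 1700055D16Rik, Oprm1 and Prss21, the 5 strongest of the 29. The palindrome GTCTAGAC was in 0.465% of all shared regions and in 1 exonic region (0.382%), in Parg, against 0.102% of exon midpoint windows, too few to compare. The GC-rich element GGCGC was in 5.24% of all shared regions and in 22 exonic ones (8.40%, 5.34 to 12.4), against 12.6% of exon midpoint windows. The interval lies above the 5.17% of other shared regions and below the share in the pooled exon windows. Of those 244240 windows 198547 are coding, a mix of classes unlike that of the regions. By class, region and window shares were 4.76% and 4.98% in 3′ UTRs and 8.33% and 12.6% in coding sequence. They were 19% and 25.5% in 5′ UTRs and 16.1% and 6.53% in noncoding exons. A difference within classes was not tested.

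The remaining strings showed nothing particular over the 262 regions. The STAT5 string TTCNNNGAA was in 8.06% of all shared regions and 15 exonic ones (5.73%, 3.24 to 9.27), the E-box CACGTG in 3.65% and 8 (3.05%, 1.33 to 5.93), and the RBPJ string GTGGGAA in 4.14% and 12 (4.58%, 2.39 to 7.86). The nuclear receptor string AGGTCA was in 15.4% of all shared regions and 46 exonic ones (17.6%, 13.2 to 22.7). Within noncoding exons it was in 15 of 31 (48.4%, 30.2 to 66.9), against 13.8% of noncoding exon midpoint windows and 9.52% of coding regions. It is the largest of 48 class and string shares and was picked after they were seen. Gm14963, 2810013P06Rik and 4921509O07Rik, named above, hold it, the last outside exon bases.

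**Figure D5:**
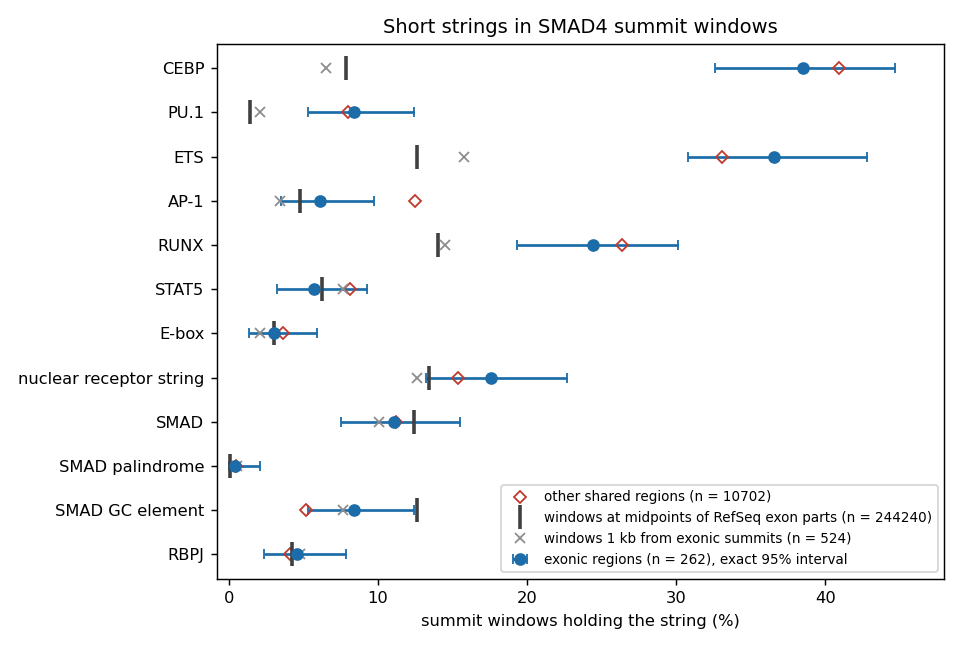
Percent of 201 bp windows that hold each string, for the 262 exonic regions (circles with exact 95% intervals), other shared regions (diamonds), windows at midpoints of annotated exon parts (vertical ticks) and windows 1000 bp from exonic summits (crosses). C/EBP, ETS, PU.1 and RUNX lie above both exon and flank windows, SMAD lies among them, and AP-1 lies below other shared regions.

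The mean GC of summit windows was below that of exon midpoint windows in each class, within the spread of the regions. Summit windows of coding regions averaged 45.3% ± 6.82 GC (SD over 84 regions), against 49.7% in windows at the midpoints of 198547 coding exon parts, and those of 3′ UTR regions 42.9% ± 7.08 (SD over 126), against 44.4%. In 5′ UTRs the means were 50.2% and 53.2%, and in noncoding exons nearly level, 45.8% and 46.25%. Windows 1000 bp from the summits averaged 43.3% beside coding regions and 44.6% beside 3′ UTR regions. Summit windows of other shared regions averaged 43.7%. Repeats covered at least 50% of the window in 3 exonic regions (1.15%) and in 4.20% of other shared regions.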

How the data were processed

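Per the study's methods, the authors used Cutadapt for trimming and Bowtie2 for alignment to mm10, removed duplicates and reads of low mapping quality, and called peaks in each SMAD4 library separately with MACS3, with input as control and a q limit of 0.05. The 2 libraries gave 16369 and 19015 peaks. Each deposited peak has a fold ratio over the control level, a −log10 p-value and −log10 q-value, a score (not used) and a summit offset. Read totals were not given in the files used. Fragments at the summit were solved from the deposited fold and p, and matched p to within 0.00054 on the −log10 scale.

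Merging, classification by 45756 curated RefSeq transcripts of 26180 genes, and string searches were run in Python 3.11.15 (numpy 2.4.6, scipy 1.17.1) with samtools 1.23.1, and tested on simulated data. Coordinates are 1-based. Members and gene lists were chosen with earlier results of these data known. Regions were named by the smaller fold: the first 10 coding, the first 5 of each other class, hosts on a gene list, hosts of several regions and the 3 weakest. Alternatives moved the position, gene models, overlap, q, fold, window and replicate. No sequence from chromosome 18 is shown.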

Additional observations from a re-analysis of the deposited data

How the results depend on the processing

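Of 77 values recomputed under the alternatives, 65 stayed within their limits: a factor of 1.5 for a count, the SD of the 2 replicate medians (1.87) for a median fold, and the 95% interval for the C/EBP share. The limit for a median fold is wide: replicate 1 alone, at 5.85 against 6.83, stayed within it. With predicted RefSeq transcripts added, the exonic count rose from 262 to 545, with 107 in 5′ UTRs and 216 in noncoding exons. A promoter of 1 kb on both sides of a TSS left 7 regions in 5′ UTRs, and a fold of at least 5 left 20 in noncoding exons. Leaving out 1 replicate gave 334 to 484 exonic peaks: 96 to 166 coding, 21 to 48 in 5′ UTRs, 173 to 208 in 3′ UTRs and 44 to 62 in noncoding exons, where each higher value is replicate 2 alone. The median fold of replicate 1 alone was 5.85 and that of replicate 2 alone 6.32, because unshared weak peaks enter. The C/EBP share was 26.7% with 50 bp to each side of the summit and 44.3% with 200 bp, and between 33.2% and 41.1% in every other setting. No paired analysis was possible because the replicate numbers follow accession order and no test was run. Few fragments per summit limit single values, and no contrast between conditions exists.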
